A study of Schizosaccharomyces pombe with 2 samples.

Results

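Fission yeast (Schizosaccharomyces pombe) mates through peptide pheromones, and the genes described here encode parts of that exchange. They were given by name as 10 genes: the receptor genes mam2 and map3, the G-protein genes gpa1 and rgs1, and mfm1, mfm2, mfm3, mam1, mam4 and sxa2, which make, mature, export or remove the pheromones. Spots named for 7 of the 10 were found on both arrays, among 4955 gene features in all; no spot was analysed under the names mfm1, mfm2 or mfm3, the M-factor precursor genes. Each of the 7 was printed as 2 spots on each array.

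Cells of fission yeast have 1 of 2 mating types, M or P. An M cell secretes M-factor, a small farnesylated peptide, and carries the receptor for P-factor; a P cell secretes P-factor and carries the receptor for M-factor. Either receptor acts through the alpha subunit Gpa1, and the signal passes through Ras1 and a kinase cascade to the transcription factor Ste11. In well-fed cells the pathway is known to be held low, and it is raised on starvation.

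The series compared a tup11 tup12 mutant with a wild-type strain, both grown in rich medium to logarithmic phase. Tup11 and Tup12 are related transcriptional corepressors; the D in the strain label was read as deletion. Both strains shared each of 2 arrays, which carried separate RNA preparations and swapped dyes, so n = 2 throughout, and nothing in the labels says whether the preparations came from separate strain isolates. Growth at 30 degrees in the medium YES was stated for the mutant of array 1. The labels used here give no mating type for either strain.

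Values are log2 of mutant over wild type, with 1 mean per array. The mutant was taken to be in the first channel of either array. No header states this, although the backgrounds and the order of names in the titles make it likely. The label of array 2, however, names the mutant as the source of the second channel. Whether that numbering follows the order of channels in the scanner data is not known. The opposite reading of both arrays would turn every sign, and that of array 2 alone would turn the signs of that array. A gene was called when its p-value from limma, adjusted by Benjamini-Hochberg over all 4812 features with a value on both arrays, was below 0.05. By this rule 168 features were called, 3.49% of those tested: 117 were higher in the mutant (2.43%) and 51 lower (1.06%), so higher ones made up 69.6% of calls. That share was 53.3% with print-tip loess, 86.8% with median centring, 81.7% with plain background subtraction, 53.1% with mean spot signals, 51.4% among detected features (those above the limit given with mam2) and 60.2% in the authors' deposited table without tied features. The feature named tup1 stood at -2.37 and -1.86 on the arrays (limma adjusted p = 0.000268). It matched no gene of the reference table. The tup11 feature stood at 0.95 and -0.11 (limma adjusted p = 0.480), and whether either probe lies in a deleted part is not known.

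Of the 7 pheromone signalling genes measured, 4 rose in the mutant: rgs1, mam1, gpa1 and mam4. The largest changes were a 3.19-fold rise of rgs1 and a 3.117-fold rise of mam1. None fell, and mam2, sxa2 and map3 did not pass the test. The 4 higher genes among 7 make 57.1%, beside 2.43% of all features called higher; earlier results of these data were known when the genes were chosen, so that count is a description. The median log2 ratio of all 7 was 0.87, beside 0.01 over all features tested.

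**Figure D1:**
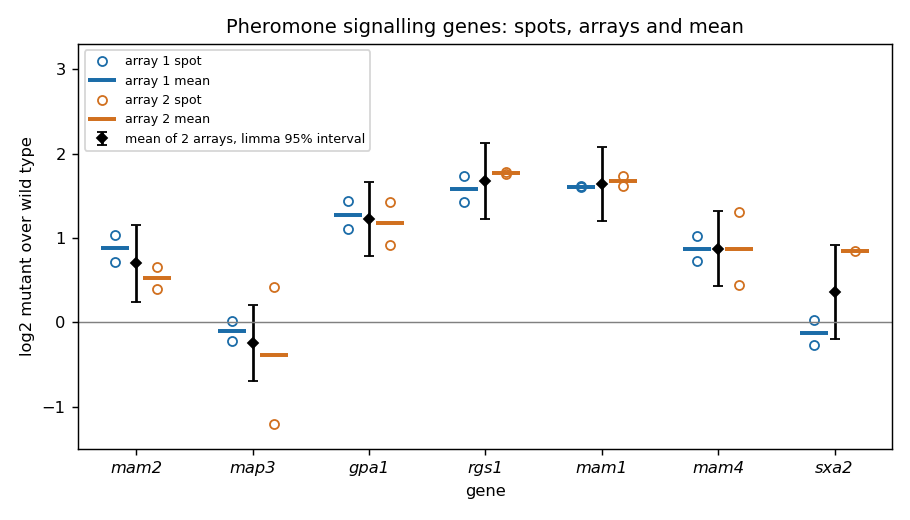
Log2 mutant over wild type (y axis) of the 7 pheromone signalling genes (x axis), with open circles for single spots, coloured bars for the mean of each array and black diamonds for the mean of 2 arrays with its limma 95% interval. The intervals of rgs1, mam1, gpa1 and mam4 lie above 0, as does that of mam2, which did not pass after adjustment, and the spots of map3 on array 2 lie on both sides of 0.

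The receptor genes were not called. The gene mam2 encodes the P-factor receptor of M cells. Its log2 ratio was 0.88 on array 1 and 0.52 on array 2, with 0.72, 1.04, 0.39 and 0.65 in its 4 spots. After loess each spot was thus higher in the mutant, whereas array 1 stood at -0.53 with median centring. The loess mean of 0.70 ± 0.25 (SD, n = 2) corresponds to 1.62-fold. The unadjusted limma p of this gene was 0.00663 and the adjusted p = 0.113, with a 95% interval of 0.24 to 1.16.

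Signals of mam2 were dim. Signals are given minus the local background, and a signal was called detected when it passed a limit set by 96 bacterial control spots, namely their 95th percentile in that channel. For a gene the limit was applied to the mean of its spots. The limit was 442 for the mutant and 1659 for the wild type on array 1, and 1076 and 488 on array 2. The mean signals of mam2 were 174 and 641 on array 1 and 1069 and 276 on array 2, below the limit in each strain and array. No fold is therefore read from mam2 as a measured size.

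The gene map3 encodes the M-factor receptor of P cells. Its log2 ratio was -0.10 on array 1 and -0.39 on array 2, and the mean of -0.25 ± 0.21 (SD, n = 2) did not pass (limma adjusted p = 0.624, 95% interval -0.70 to 0.21). The 2 spots on array 2 disagreed, at -1.21 and 0.42. In the first of them the wild-type signal was 1907 and in the second 116, while the mutant signals were 987 and 774. The mutant was detected on neither array, and the wild type on array 2 alone, through that single bright spot. No size of change is read from map3.

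The G-protein genes both rose. The gene gpa1 encodes the alpha subunit that carries the signal of either receptor. After loess and scaling between arrays, its log2 level was 11.49 and 11.21 in the mutant on arrays 1 and 2, and 10.22 and 10.03 in the wild type. Here and for the genes below, a comparison of such levels across arrays adds no support to the calls. The ratio was 1.28 and 1.17, with a mean of 1.22 ± 0.07 (SD, n = 2), or 2.34-fold (limma adjusted p = 0.00654, 95% interval 1.72 to 3.17-fold). Its single spots ranged from 0.92 to 1.44, so the spread between spots of an array was larger than that between array means.

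The gene rgs1 encodes a regulator of G-protein signalling, a protein that speeds the return of the alpha subunit to its inactive form. Its log2 level was 11.85 and 11.81 in the mutant and 10.27 and 10.04 in the wild type. The ratio was 1.58 on array 1 and 1.77 on array 2, a mean of 1.68 ± 0.13 (SD, n = 2) and a fold of 3.19 (limma adjusted p = 0.000829, 95% interval 2.34 to 4.35-fold). All 4 spots lay between 1.43 and 1.78. Among the 4812 features rgs1 ranked 39 by its mean ratio, above 99.2% of them.

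**Figure D2:**
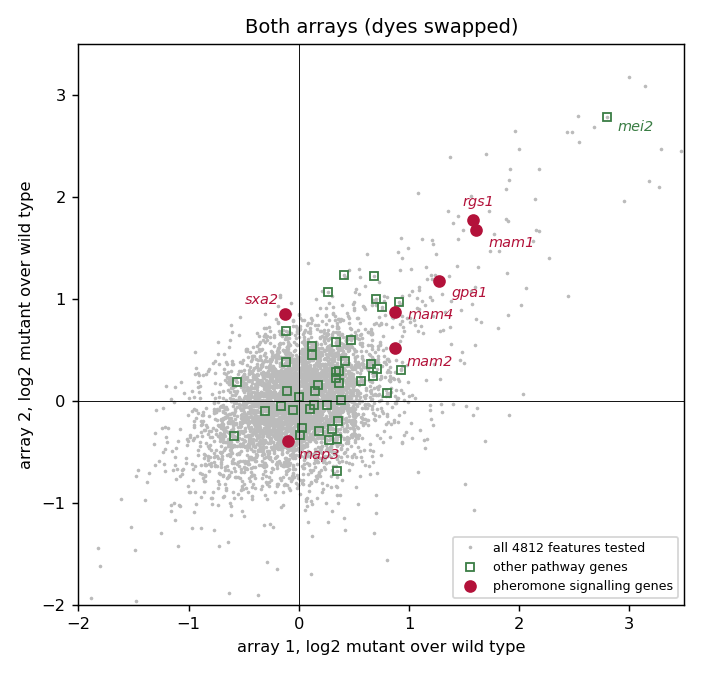
Log2 mutant over wild type on array 1 (x axis) and array 2 (y axis), with grey points for all 4812 features tested, green squares for other genes of the pathway and red circles for the 7 pheromone signalling genes; 17 features lie outside the plotted range. Over all features tested, the correlation between the arrays was 0.552 (Pearson) and 0.337 (Spearman). The genes rgs1, mam1, gpa1 and mam4 lie near the diagonal in the upper right, while sxa2 is at -0.12 on array 1 and 0.85 on array 2.

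The genes mam1 and mam4, for export and maturation of M-factor, both rose. The gene mam1 encodes the ABC transporter that exports M-factor. Its log2 level was 13.36 and 13.72 in the mutant and 11.75 and 12.05 in the wild type. The ratio was 1.61 and 1.67, with a mean of 1.64 ± 0.05 (SD, n = 2), or 3.117-fold (limma adjusted p = 0.000897, 95% interval 2.30 to 4.23-fold). Its 4 spots lay between 1.60 and 1.73 and were each detected in both strains. It ranked 41 among all features.

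The gene mam4 encodes the methyltransferase that modifies the carboxyl end of M-factor. Its log2 level was 10.80 and 11.15 in the mutant and 9.93 and 10.28 in the wild type. The ratio was 0.87 on each array, a fold of 1.83 (limma adjusted p = 0.04, 95% interval 1.35 to 2.49-fold). The SD of 0.0022 between array means understates the error, since the 4 spots ranged from 0.44 to 1.31. Of the 4 called genes mam4 was nearest to the threshold, and it ranked 124.

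The gene sxa2 encodes a carboxypeptidase that M cells release to inactivate P-factor. Its log2 ratio was -0.12 on array 1 and 0.85 on array 2, on opposite sides of 0. The mean of 0.36 ± 0.69 (SD, n = 2) did not pass (limma adjusted p = 0.543, 95% interval -0.19 to 0.92). The value of array 2 came from 1 spot, because the other carried quality code 3 and was left out. That spot was not bright, with a wild-type signal of 1113 and a mutant signal of 889. With all spots kept the mean was -0.04, so neither a rise nor a fall is given for this gene. Its wild-type signal was detected on neither array, and its mutant signal on array 2 only.

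The direction of the 4 called genes held in every other setting that gave them a value, 8 for gpa1 and 9 for each of the others, and their calls did not. All 4 calls were lost with median centring and in the authors' deposited table with all its features; that of mam4 was also lost with a normexp offset of 0, and those of gpa1 and mam4 with plain background subtraction. Over those settings the mean log2 ratio ranged from 1.35 to 1.91 for rgs1, from 1.55 to 1.74 for mam1, from 0.95 to 1.42 for gpa1 and from 0.70 to 1.03 for mam4. In the authors' deposited table the spots of rgs1 stood at 0.54 and 0.47 on array 1 and 0.64 and 0.59 on array 2, on the log10 scale with the channel read as mutant in the numerator. Those of mam1 were 0.47, 0.48, 0.55 and 0.44, those of gpa1 0.48, 0.36, 0.40 and 0.44, and those of mam4 0.22, 0.35, 0.18 and 0.45 in the same order. All of these were above 0.

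The called genes, whose mean signals passed the limit in both strains, and the dim genes differed in how far normalisation moved them. Some wild-type means passed narrowly: 1846 for mam4 on array 1 (limit 1659), and 562 for gpa1 and 590 for rgs1 on array 2 (limit 488). Single wild-type spots below the limit stood at 1297 and 385 for gpa1 and 1555 and 377 for mam4 on arrays 1 and 2. A wild-type spot of rgs1 on array 2, at 367.5, was below it as well, and every mam1 spot passed. With median centring in place of loess, which removes only a constant difference between channels, rgs1 stood at 1.69 and 1.65 on the arrays, gpa1 at 1.21 and 1.14, mam1 at 1.99 and 1.49 and mam4 at 0.60 and 0.80. Of these means that of mam4 moved furthest, from 0.87 with loess to 0.70. The dim genes moved more: mam2 stood at -0.53 and 0.90, map3 at -1.40 and -0.16 and sxa2 at -1.53 and 1.31. On array 1 loess had raised these 3 genes by 1.30 to 1.41. The median SD between the arrays over all features was 0.443 with median centring and 0.209 with loess, and the adjusted p of rgs1 was then 0.201 at nearly the same fold.

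**Figure D3:**
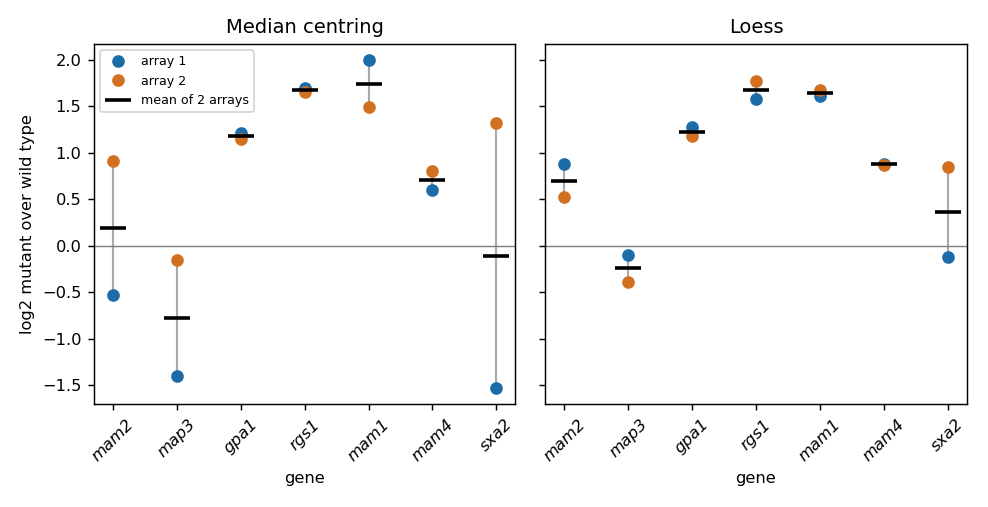
Log2 mutant over wild type (y axis) of the 7 genes (x axis) after median centring (left) and loess (right), with coloured points for the arrays, black bars for their mean and grey lines joining the arrays. With median centring the arrays lie further apart for mam2, map3, sxa2, mam1 and mam4, by most for sxa2, and the means of gpa1, rgs1, mam1 and mam4 stay between 0.70 and 1.74.

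The remaining pathway was followed through lists of genes by role, chosen with earlier results of these data known. Of 14 genes for signal transduction downstream of the receptors, such as ras1 and the kinase genes byr2, byr1 and spk1, none passed limma after adjustment. An unadjusted p below 0.05 was reached by 4, of which ras1 was lower in the mutant, at -0.47; over all features 780 of 4812 reached it (16.2%). The median of the list was 0.20. The highest was spk1, the MAP kinase gene, which like ras1 is named after its value was seen: it stood at 0.70 and 1.0, with a limma adjusted p = 0.0507. Of 7 other genes for pheromone processing, with the P-factor gene map2 and other M-factor maturation genes such as cpp1 and rce1 among them, none passed limma and 1 had an unadjusted p below 0.05, with a median of 0.28. Of 8 measured genes for agglutination, cell fusion and nuclear fusion, none passed, none had an unadjusted p below 0.05, and the median was -0.01.

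A list of transcription factors, kinases and other regulators of mating and meiosis had 11 measured genes, of which 3 rose and none fell, with a median of 0.51. These 3 make 27.3%, beside 2.43% of all features called higher. The gene mei2, which encodes an RNA-binding protein for meiosis and acts downstream of Ste11, stood at 2.79 on both arrays (6.91-fold, limma adjusted p = 2.77e-05). The gene ste11 itself stood at 0.91 and 0.97 (1.92-fold, adjusted p = 0.0293). The gene cgs1, which encodes the regulatory subunit of protein kinase A, stood at 0.69 and 1.23 (1.94-fold, adjusted p = 0.0394). The gene of the catalytic subunit, pka1, named after its value was seen, stood at 0.75 and 0.92 and did not pass (limma adjusted p = 0.0506). Of 5 genes of the separate G-protein pathway that senses glucose, none passed limma, 2 had an unadjusted p below 0.05, and the median was 0.27. In all 45 measured genes of these lists 3 were called higher (6.67%, beside 2.43% of all features), and 25 were higher on both arrays (55.6%, beside 30.1% of all features).

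**Figure D4:**
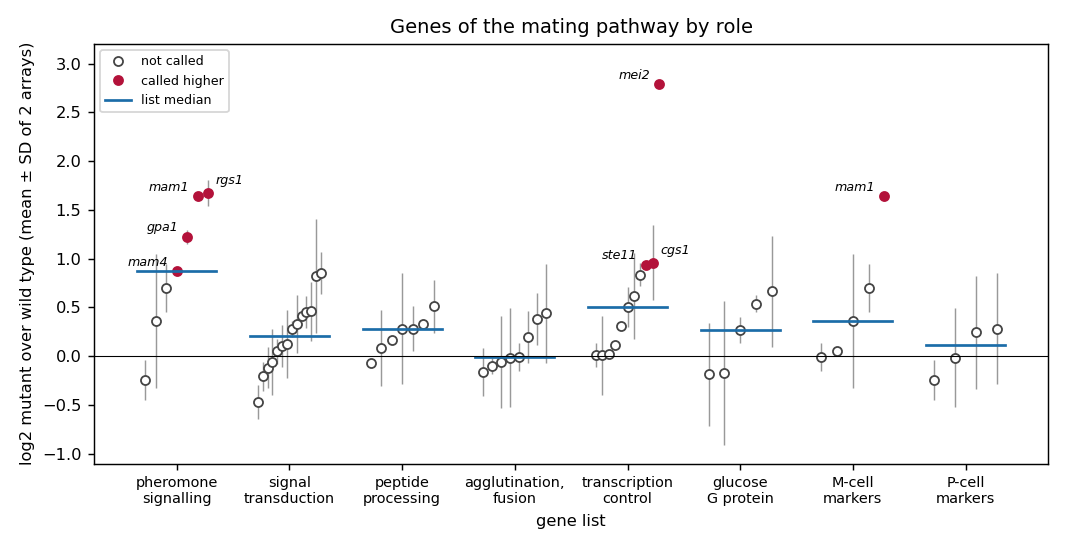
Log2 mutant over wild type (y axis, mean ± SD of 2 arrays) of the genes in each list (x axis), with red points for genes called higher, open points for genes not called and blue lines for list medians. Calls fall in the pheromone signalling genes (rgs1, mam1, gpa1, mam4) and in the list of regulators marked transcription control (mei2, ste11, cgs1), and mam1 appears again among the M-cell markers.

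Markers of the mating types were set side by side, since the strains' types were not given. Among 9 markers of M cells, 5 were measured. Beside mam1, mam2 and sxa2 these were mat1-Mc, which encodes the M-type transcription factor, at 0.06 ± 0.02, and the agglutinin gene mam3 at -0.01 ± 0.14 (SD, n = 2; limma adjusted p = 0.924 and 0.993). The mat1-Mc spots cannot be told apart from the silent copy at mat3. Of these 5 only mam1 was called, and mam2 and mam3 were detected in neither strain. The median of the 5 was 0.36.

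Of 6 markers of P cells 4 were measured and none was called by limma, with none at an unadjusted p below 0.05. Besides map3, the P-factor gene map2 stood at -0.12 and 0.68, the agglutinin gene map4 at 0.34 and -0.37 and the peptidase gene sxa1 at -0.17 and 0.66. Each of these 3 had opposite signs on the arrays, and all were detected in each strain on either array. The median of the 4 was 0.11. Markers of both types, mat1-Mc and mam1 for M and map2, map4 and sxa1 for P, therefore gave signal in both strains. A mixture of mating types or unspecific signal was not tested. Because whole cultures were measured, more cells of a type and more RNA per cell cannot be told apart.

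The genes next to the 7 on the chromosome were not called. There were 14 such protein-coding genes, 1 on each side in the order of the reference table, none passed limma after adjustment and 3 had an unadjusted p below 0.05 (21.4%, beside 16.2% of all features), and their means ranged from -0.71 to 0.58 with a median of -0.10. Beside gpa1 lay sec28, at -0.71 ± 0.04 and detected in neither strain, and cdc14, at -0.29 ± 0.90 (SD, n = 2; adjusted p = 0.091 and 0.694). Beside rgs1 lay tsc1 at -0.14 ± 0.30 and snu23 at 0.17 ± 0.13. The neighbours of mam1 were hbs1 at -0.41 ± 0.05 and SPBC25B2.03 at 0.58 ± 0.29, and those of mam4 were atg17 at -0.40 ± 0.42 and caa1 at -0.38 ± 0.16.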

How the data were processed

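Per the file headers, the deposited scanner tables hold spot intensity on a linear scale, as mean and median signal and local background of 2 channels. A quality code of 0, 2 or 3 goes with each spot and channel, and its meaning is not given in the sources used here; nor are image software and scanner. A further table holds log10 ratios that the authors normalised by Lowess on each array, per the series design text. Their scale and order (first over second channel) were read from a comparison with the scanner signals (r = 0.54 and 0.714 across gene spots). Mean background changed places between the channels (1.80 and 408 on array 1, 753 and 12.5 on array 2). With the swapped dyes this makes it likely, though not stated, that the first channel held the same strain on both. The label of array 2, which names the mutant for the second channel, was not followed.

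Median signals were background-corrected with normexp (offset 50) and normalised by 1 loess curve per array (limma 3.58.1, R 4.3.3, statmod 1.5.0). The curve was fitted without the 1550 control, empty or nameless spots of 11520 and without those of code 3. The latter (905 and 765) were then dropped, and a mean was taken over each feature. Of 4955 features, named through the ASM294v3 table (179 unmatched), 4812 had values on both arrays and entered lmFit and eBayes, with a prior of 9.21 degrees of freedom and no dye term. The limit for detection was chosen after signals had been seen. The genes and lists were chosen with earlier results of these data known. All pheromone signalling genes found are named, genes of the lists where they passed, and mating-type markers in every case. The number of arrays limits precision. Each p-value combines a gene's spread between the 2 arrays with a prior from all features, which supplies 9.21 of 10.2 degrees of freedom. The spread between arrays holds RNA preparation and dye together, and nothing beyond these 2 preparations was sampled. Alternatives covered normalisation, background correction, signal column, quality code, a filter on dim features and the authors' values.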

Additional observations from a re-analysis of the deposited data

How the results depend on the processing

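The count of features called, 168 by limma, was 377 with print-tip loess, 38 with median centring, 60 with plain background subtraction, 358 with mean spot signals and 327 among detected features only. In the authors' deposited table it was 0, with 592 at an unadjusted limma p below 0.05. There 72 features had equal rounded values on both arrays, a spread of 0 that lowered the prior to 2.72 degrees of freedom; without them, a setting chosen after seeing the data, 251 were called. The count of pheromone signalling genes called, 4 of 7, was 0 with median centring (3 at an unadjusted p below 0.05), 2 with plain background subtraction and 0 in the authors' deposited table (5 at an unadjusted p below 0.05). Without tied features 3 of 6 were called in that table, gpa1 being tied. The mean of sxa2 turned to -0.11 with median centring and -0.0441 with all spots kept. The gene mam2 passed with print-tip loess (0.68, adjusted p = 0.0185) and with mean spot signals (0.68, adjusted p = 0.00514). Leaving out either array gave values without a test and no counts. Each ratio already pairs the strains within an array, and the arrays form 1 group, so no further pairing was possible. The cause of the other differences between settings was not tested. The promoter search planned was not run, since no promoter sequences were used here.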
